A study of Arabidopsis thaliana with 18 samples.

Results

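The transcriptome of era1 rosettes was compared with that of wild type (WT) rosettes of Arabidopsis thaliana that received no nitrate (0 mM). The comparison held 6 of the 18 libraries of the series, 3 of era1 and 3 of WT, chosen by the genotype and dose in their titles, and all 32744 genes of the count tables. The era1 plants carried a T-DNA insertion described in the labels as a knock-out, and the WT plants carried none. The remaining 12 libraries came from the same genotypes at 2 and 10 mM nitrate, with 3 libraries in each group, and entered the fit that estimated the spread between replicates. All plants grew on potting soil, so 0 mM is the nitrate supplied and not the nitrogen content of the substrate, and rosettes were taken at Boyes stage 5.10, when the first flower buds show. The labels do not say whether the libraries of a group came from separate plants or pools, although the series text calls them biological replicates, so the p-values cover the spread between these libraries, which may be technical. The mutant is represented by a single insertion allele.

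The product of ERA1 is the beta subunit of the farnesyltransferase of plants. This enzyme attaches a farnesyl lipid to a cysteine near the C-terminus of target proteins, which helps them to reach membranes or partners. Plants that lack ERA1 are known for an enhanced response to the hormone abscisic acid. Nitrate is both the main nitrogen source of Arabidopsis and a signal: it induces its own assimilation genes, while a lack of nitrogen promotes the breakdown of leaf protein, the export of amino acids, anthocyanin accumulation and early senescence. The series title places farnesylation in the adaptation to nitrogen starvation, and the comparison at 0 mM asks how the 2 genotypes differ under that condition.

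Gene totals were 5179170 to 5689428 counts per library at 0 mM, with 20982 to 21486 genes detected. Levels are CPM, that is counts scaled to a common library total. Differences are log2 fold changes of era1 over WT ± SE, and a gene was called at a false discovery rate (FDR) under 0.05 in edgeR's quasi-likelihood test. Because a 3' tag method counts transcript ends, CPM were compared between genotypes for the same gene. Organelle genes took 3.25 ± 0.326% of gene counts in era1 and 4.13 ± 0.184% in WT (SD, n = 3 each), without overlap (exact two-sided permutation p = 0.1, the smallest that 3 against 3 libraries allow). The 40 nuclear photosynthesis genes that should mark green tissue summed to 34297 to 39465 CPM in the era1 libraries and to 59769.9 to 63097 CPM in the WT libraries. Of the 5 anther and pollen markers 4 had no count in any of the 6 libraries, and so had 7 of the 9 seed storage markers and 4 of the 12 root markers.

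ERA1, the gene after which the mutant is named, was measured first. ERA1 (AT5G40280) had 1.93, 2.73 and 2.21 CPM in the era1 libraries, against 9.63, 10.2 and 8.69 CPM in the WT libraries. Every era1 library lay below every WT library, and the log2 fold change was -2.04 ± 0.20 (FDR = 9.4e-09). A 3' tag may lie outside the part that an insertion disrupts, and what was left of the signal need not come from intact transcript. The genotype label gives the insertion a different locus, so which gene carries it is unresolved here. That locus is AT5G66470, a GTP-binding Era-like protein in the reference table, which was lower in era1 by a smaller step, with 20.3, 16.9 and 13.9 CPM in era1 and 26.6, 22.3 and 33.1 CPM in WT (-0.69 ± 0.15, FDR = 4.6e-04). The genes of the partner and sister subunits did not pass the test. FTA (AT3G59380), the alpha subunit common to farnesyltransferase and geranylgeranyl transferase I, averaged 21.3 ± 0.902 CPM in era1 and 20.1 ± 0.841 CPM in WT (0.08 ± 0.12, FDR = 0.608). PGGT-I (AT2G39550), the beta subunit of geranylgeranyl transferase I, averaged 6.46 ± 0.772 and 6.66 ± 1.15 CPM (-0.04 ± 0.21, FDR = 0.889).

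Of all 18358 genes tested, 9014 (49.1%) passed, so a called gene is common in this comparison: 4491 were higher in era1 (24.5%) and 4523 lower (24.6%). By at least 2-fold, 1069 were higher (5.82%) and 1349 lower (7.35%), and the 3 era1 libraries did not overlap the 3 WT libraries for 9977 genes (54.3%). The median log2 fold change of all genes tested was 0.02. Against that background the prenylation and isoprenoid list was divided, with 4 of 17 tested members higher, 5 lower and a median of 0.08, or 0.02 without era1 library 2, 0.05 without era1 library 3 and 0.05 without WT library 1. FPS1 (AT5G47770), a farnesyl diphosphate synthase, fell to 63.9 ± 2.64 CPM in era1, against 106 ± 1.86 CPM in WT (-0.73 ± 0.08, FDR = 3.0e-08). REP (AT3G06540), the Rab escort protein that presents Rab GTPases for geranylgeranylation, was 11.4 ± 1.09 CPM in era1 and 6.39 ± 1.67 CPM in WT (0.84 ± 0.20, FDR = 0.00129). RGTB2 (AT3G12070), a beta subunit of Rab geranylgeranyl transferase, was 0.75 ± 0.28 (FDR = 0.029), but its FDR rose to between 0.0686 and 0.0860 when era1 library 1, era1 library 2, WT library 1 or WT library 3 was left out.

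Proteins reported to be farnesylated were mostly higher in transcript level. Of 13 on the list 11 were tested, 7 were higher and 3 lower, with a median of 0.32. The DnaJ-type co-chaperones J2 (AT5G22060) and J3 (AT3G44110) stood at 178 ± 30.3 and 550.3 ± 40.9 CPM in era1, against 123 ± 14.1 and 386 ± 23.2 CPM in WT, with log2 fold changes of 0.53 ± 0.10 (FDR = 1.0e-04) and 0.51 ± 0.07 (FDR = 1.3e-06). ASG2 (AT5G10940), a protein named for altered seed germination, rose to 36.6 ± 1.77 CPM in era1, against 27.6 ± 2.52 CPM in WT (0.41 ± 0.09, FDR = 9.6e-04), and the metal-binding FP6 (AT4G38580) rose by 0.48 ± 0.13 (FDR = 0.00423). FP3 (AT5G63530), another metal-binding farnesylated protein, went the other way, with 270.2, 298 and 237 CPM in era1 and 508, 432 and 432 CPM in WT (-0.77 ± 0.08, FDR = 2.7e-08). BR6OX2 (AT3G30180), the cytochrome P450 CYP85A2 that makes brassinolide, was also lower (-0.63 ± 0.12, FDR = 1.4e-04). Among the nucleosome assembly proteins, NAP1;1 (AT4G26110) was higher (0.39 ± 0.09, FDR = 0.00106), NAP1;2 (AT2G19480) did not pass (0.15 ± 0.07, FDR = 0.0646) and NAP1;3 (AT5G56950) was lower (-0.32 ± 0.12, FDR = 0.0311). The peroxin genes PEX19-1 (AT3G03490) (0.27 ± 0.11, FDR = 0.046) and PEX19-2 (AT5G17550) (0.32 ± 0.10, FDR = 0.00958) were called higher. These small differences depended on single libraries: the FDR of NAP1;3 rose to 0.101 without era1 library 1, 0.0764 without WT library 1 and 0.0545 without WT library 2, that of PEX19-2 to 0.0647 without era1 library 3 and 0.0657 without WT library 3, and that of PEX19-1 to between 0.0555 and 0.25 without any library but era1 library 2. NAP1;2 was called without era1 library 2 (0.21, FDR = 0.0167) or WT library 1 (0.19, FDR = 0.0484).

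**Figure D1:**
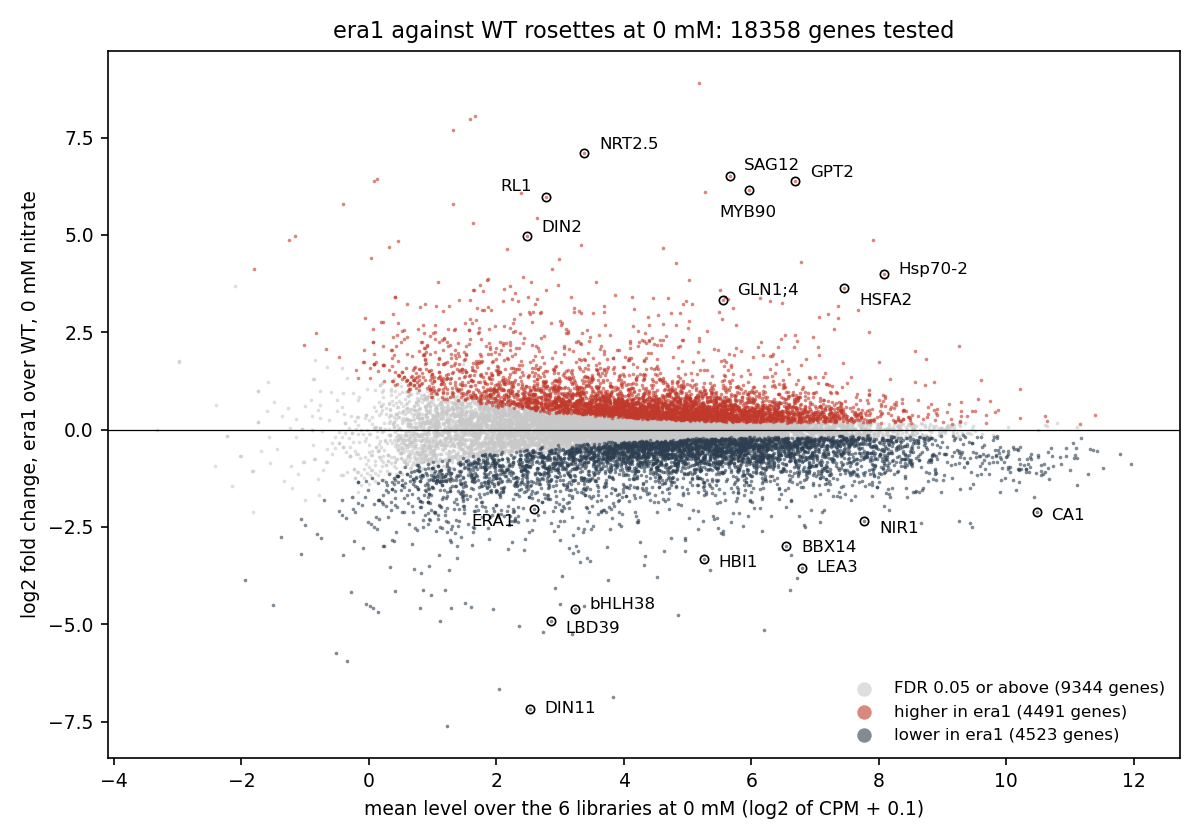
Each point is a gene, placed by its mean level over the 6 libraries at 0 mM (log2 of CPM + 0.1) and by its log2 fold change of era1 over WT, with 4491 genes higher in era1 in red, 4523 lower in dark blue and genes that did not pass in grey. Circled names mark genes described in the text, from NRT2.5 at 7.10 to DIN11 at -7.18.

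The genes with the strongest increase in era1 included a nitrate transporter, a sugar phosphate carrier of plastids, a pigment regulator and a senescence marker. NRT2.5 (AT1G12940), a high-affinity nitrate transporter known from prolonged nitrogen starvation, had 94, 139 and 144 counts in the era1 libraries and 0, 0 and 2 counts in the WT libraries. The ratio of era1 over WT summed counts, scaled by TMM-adjusted library size, was 163 (44.8 to 1352, exact conditional interval at 95%, counting error only). The fitted log2 fold change was 7.10 ± 0.47 (FDR = 7.2e-11), or 9.79 without WT library 3. GPT2 (AT1G61800), a glucose-6-phosphate translocator of plastids, had 151, 282 and 177 CPM in era1 and 0.944, 3.33 and 2.96 CPM in WT (6.39 ± 0.29, FDR = 7.5e-15). MYB90 (AT1G66390), the anthocyanin regulator also called PAP2, had 112, 134 and 122 CPM in era1 and 1.70, 2.15 and 1.29 CPM in WT (6.15 ± 0.20, FDR = 8.7e-18). For each of these 3 genes the lowest era1 library lay above the highest WT library, which the rule that named them required.

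Among the other 9 of the 12 named genes with the highest change, the fitted log2 fold changes ran from 3.71 to 6.51. SAG12 (AT5G45890), a cysteine protease that marks late leaf senescence, had 133, 68.7 and 98.4 CPM in era1 and 0, 0.196 and 2.96 CPM in WT (6.51 ± 0.67, and 9.70 without WT library 3). RL1 (AT4G39250), a MYB-related protein of the RADIALIS-like family, had 246 counts over the era1 libraries and 3 over the WT libraries, a ratio of 71.0 (24.0 to 346). DIN2 (AT3G60140), a dark-inducible beta-glucosidase, averaged 10.6 ± 6.38 CPM in era1 and 0.319 ± 0.297 CPM in WT, with 5.78, 8.19 and 17.8 CPM in the era1 libraries. ELI3-2 (AT4G37990), a pathogen-inducible alcohol dehydrogenase, averaged 19.1 ± 8.27 and 0.693 ± 0.201 CPM (4.74 ± 0.50), and AOX1D (AT1G32350), an alternative oxidase of mitochondria, 10.7 ± 4.51 and 0.755 ± 0.371 CPM (3.79 ± 0.42). THA1 (AT1G08630), a threonine aldolase that breaks down threonine to glycine, averaged 13.6 ± 1.47 and 0.762 ± 0.382 CPM (4.12 ± 0.35). The cytosolic chaperone Hsp70-2 (AT5G02490), the proton pump interactor PPI2 (AT3G15340) and the glyoxalase I homologue GLYI7 (AT1G80160) were called higher in era1 at all 3 doses. At 0, 2 and 10 mM their log2 fold changes were 3.99, 3.78 and 3.69 for Hsp70-2, 4.66, 3.58 and 4.81 for PPI2, and 3.71, 2.39 and 2.70 for GLYI7.

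The genes with the strongest decrease included regulators of iron uptake, nitrate response and growth. DIN11 (AT3G49620), a dark-inducible dioxygenase, had 1 count over the era1 libraries and 178 over the WT libraries, a ratio of WT over era1 of 206 (36.4 to 8169). The WT libraries were uneven, with 26.4, 6.27 and 1.11 CPM, and the log2 fold change was -7.18 ± 1.19, or -5.57 without WT library 1 and -8.95 without era1 library 1. LEA3 (AT1G02820), a late embryogenesis abundant protein, had 20.3, 17.8 and 14.2 CPM in era1 and 222, 209 and 180.2 CPM in WT (-3.55 ± 0.12, FDR = 2.2e-17). BBX14 (AT1G68520), a B-box zinc finger protein, had 22.4, 18.5 and 21.8 CPM in era1 and 158, 176 and 165 CPM in WT (-2.99 ± 0.09, FDR = 6.6e-18). BT5 (AT4G37610), a BTB and TAZ domain scaffold protein, averaged 5.06 ± 1.51 CPM in era1 and 44.0 ± 5.89 CPM in WT (-3.11 ± 0.18). BRS1 (AT4G30610), a serine carboxypeptidase linked to brassinosteroid signalling, and SP1L4 (AT5G15600), a microtubule-associated SPIRAL1-like protein, fell by similar steps (-3.11 ± 0.21 and -3.05 ± 0.23). LBD39, LBD38, HBI1 and the iron uptake genes BHLH100, bHLH38 and bHLH39 complete the 12 and are described with their groups.

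**Figure D2:**
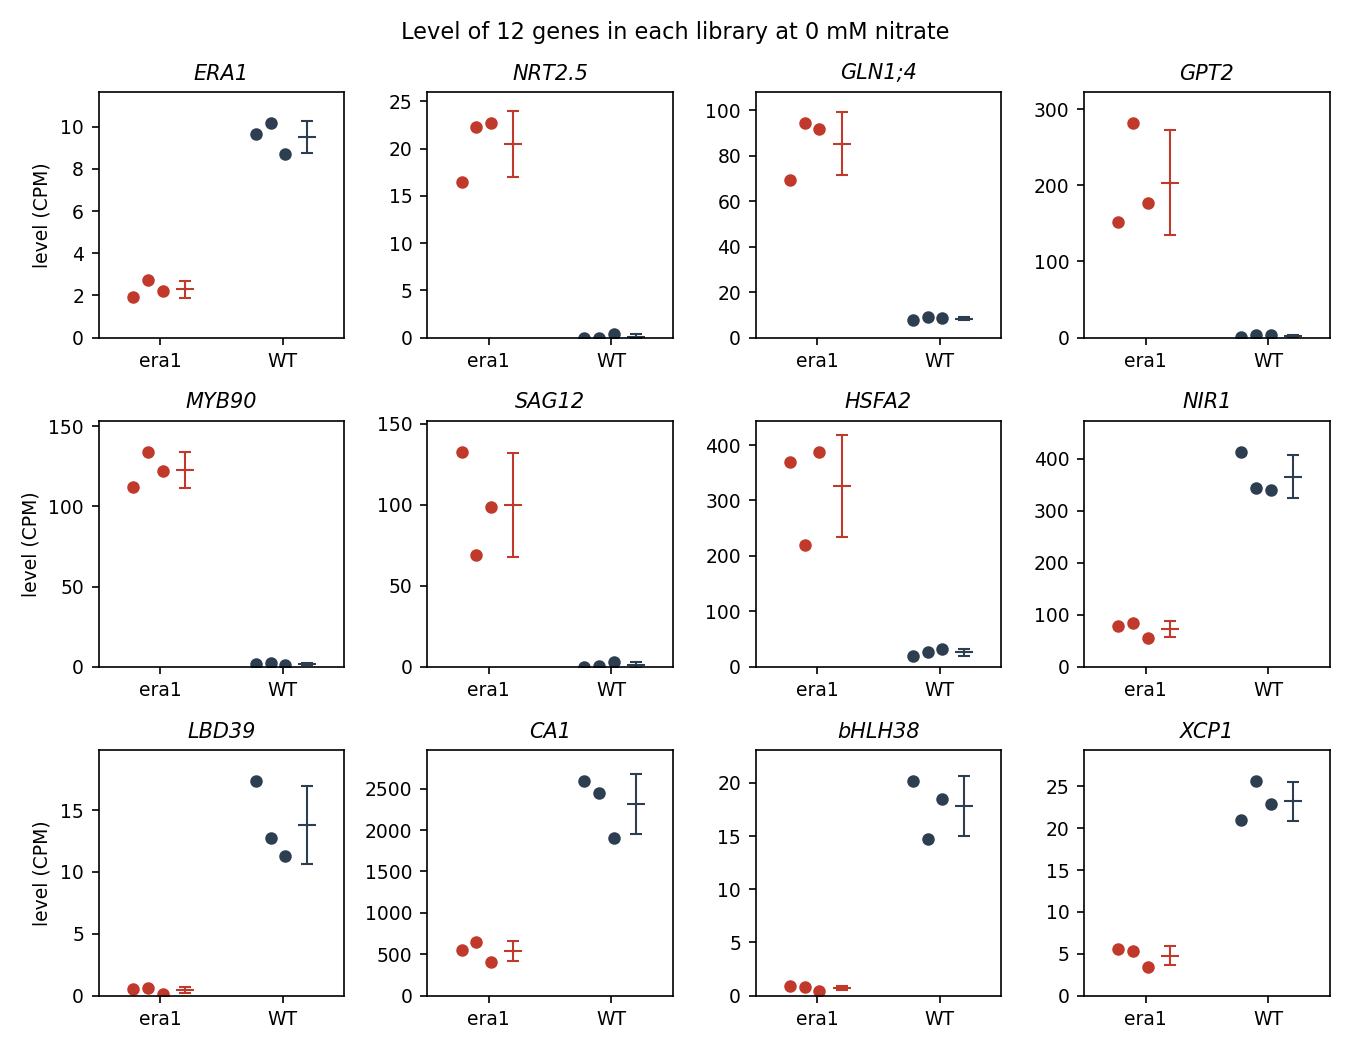
Level in CPM of 12 genes in each of the 3 era1 (red, left) and 3 WT (dark blue, right) libraries at 0 mM, with the mean ± SD beside the points. In each panel the era1 points lie wholly above the WT points (NRT2.5, GLN1;4, GPT2, MYB90, SAG12, HSFA2) or wholly below them (ERA1, NIR1, LBD39, CA1, bHLH38, XCP1).

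Nitrate transporters did not move as a block. Of 16 tested members 7 were higher and 4 lower, with a median of 0.33. Beside NRT2.5, its relative NRT2.6 (AT3G45060) had 8.59, 2.41 and 6.0 CPM in era1 and 0.189, 0.392 and 0.739 CPM in WT (3.60 ± 0.52, FDR = 5.3e-06). NRT1.8 (AT4G21680), which takes nitrate out of the xylem, averaged 10.9 ± 3.41 CPM in era1 and 3.79 ± 2.61 CPM in WT (1.52 ± 0.40, FDR = 0.00303), and without WT library 1, the highest of the WT libraries, its log2 fold change was 2.24. CLC-A (AT5G40890), the exchanger that loads nitrate into the vacuole, fell to 16.1, 11.6 and 9.95 CPM in era1, against 81.4, 75.4 and 79.7 CPM in WT (-2.66 ± 0.12, FDR = 2.7e-15). Its relative CLC-B (AT3G27170) fell by a smaller step (-0.88 ± 0.14, FDR = 7.8e-06).

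Genes of the nitrate response and of assimilation, a list that also holds regulators, were mostly lower in era1. Of 25 tested members 15 were lower and 2 higher, with a median of -0.62. NIR1 (AT2G15620), nitrite reductase, had 78.0, 83.5 and 55.1 CPM in era1 and 413, 343 and 340.1 CPM in WT (-2.34 ± 0.12, FDR = 1.1e-13). The nitrate reductases, chosen after their values were seen, were lower by smaller steps: NIA2 (AT1G37130) averaged 518 ± 4.31 CPM in era1 and 866 ± 32.2 CPM in WT (-0.74 ± 0.08, FDR = 5.6e-08), and NIA1 (AT1G77760) 48.5 ± 6.40 and 69.4 ± 23.3 CPM (-0.52 ± 0.19, FDR = 0.0259). The LBD repressors of nitrogen-responsive genes fell together. LBD39 (AT4G37540) had 0.526, 0.642 and 0.158 CPM in era1 and 17.4, 12.7 and 11.3 CPM in WT (-4.90 ± 0.33, FDR = 7.9e-12), LBD38 (AT3G49940) averaged 1.95 ± 0.849 and 19.9 ± 2.93 CPM (-3.36 ± 0.27, FDR = 2.3e-10), and LBD37 (AT5G67420), also chosen after its values were seen, 14.4 ± 2.95 and 70.7 ± 6.63 CPM (-2.30 ± 0.13, FDR = 2.8e-13). BT2 (AT3G48360), a scaffold protein that represses high-affinity nitrate uptake, was near the detection limit, with 1 count over the era1 libraries and 27 over the WT libraries (ratio of WT over era1 31.2, 5.14 to 1277). The members that rose were the kinase CIPK23 (AT1G30270), a regulator of nitrate and potassium transport (0.50 ± 0.10, FDR = 2.3e-04), and the transcription factor TGA4 (AT5G10030) (0.59 ± 0.15, FDR = 0.00228).

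The list of nitrogen remobilisation and uptake genes was mostly higher in era1. 10 of 17 tested members were higher and 2 lower, with a median of 0.41. GLN1;4 (AT5G16570), a cytosolic glutamine synthetase, had 69.4, 94.4 and 91.9 CPM in era1 and 7.56, 9.01 and 8.69 CPM in WT (3.34 ± 0.17, FDR = 6.0e-14). GSR 1 (AT5G37600), the cytosolic glutamine synthetase GLN1;1, had 114, 106 and 133 CPM in era1 and 23.6, 24.5 and 25.7 CPM in WT (2.26 ± 0.11, FDR = 3.0e-14). Cytosolic glutamine synthetases reassimilate ammonium that protein breakdown releases. ERD5 (AT3G30775), the proline dehydrogenase that starts proline breakdown, rose to 91.3 ± 27.6 CPM in era1, against 22.7 ± 1.52 CPM in WT (2.01 ± 0.24, FDR = 1.9e-07), and the urea transporter DUR3 (AT5G45380) to 57.2 ± 7.03 CPM, against 14.5 ± 1.25 CPM (1.98 ± 0.13, FDR = 6.2e-12). The 2 members that fell were the amino acid permease AAP1 (AT1G58360) (-0.65 ± 0.11, FDR = 2.0e-05) and the ammonium transporter AMT1;2 (AT1G64780) (-0.26 ± 0.09, FDR = 0.0167), the call of AMT1;2 being lost without era1 library 1 (FDR = 0.0941), era1 library 3 (0.0536) or WT library 3 (0.0612).

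Autophagy genes, whose products deliver cell contents to the vacuole for recycling, were mostly higher in era1. Of 20 tested members 15 rose and 0 fell, with a median of 0.46. The members with the largest change all encode ATG8, the ubiquitin-like protein that coats the forming autophagosome. ATG8G (AT3G60640) had 41.5, 43.0 and 37.3 CPM in era1 and 12.8, 15.1 and 22.7 CPM in WT (1.26 ± 0.14, FDR = 6.5e-08). ATG8B (AT4G04620) averaged 45.0 ± 3.68 and 20.4 ± 1.14 CPM (1.14 ± 0.10), APG8A (AT4G21980) 95.2 ± 0.823 and 50.7 ± 7.10 CPM (0.91 ± 0.09), and ATG8D (AT2G05630) 56.2 ± 5.22 and 30.4 ± 1.85 CPM (0.88 ± 0.10).

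Leaf senescence genes were also mostly higher, 14 of 21, with 3 lower and a median of 0.70. Beside SAG12, the chlorophyll breakdown regulator NYE2 (AT4G11910) had 13.8, 19.8 and 15.9 CPM in era1 and 1.32, 0.979 and 3.33 CPM in WT (3.11 ± 0.26, FDR = 4.4e-10; 3.81 without WT library 3). SAG13 (AT2G29350), a short-chain alcohol dehydrogenase that rises early in senescence, had 100.1, 94.3 and 86.2 CPM in era1 and 15.3, 14.5 and 13.7 CPM in WT (2.69 ± 0.17, FDR = 2.1e-12). NAC042 (AT2G43000), the transcription factor JUB1 that delays senescence, rose as well (2.48 ± 0.32, FDR = 6.6e-07). The members that fell included SEN1 (AT4G35770), a dark-inducible gene (0.822 ± 0.159 CPM in era1 and 4.15 ± 1.69 CPM in WT, -2.31 ± 0.63, FDR = 0.00352), and the sugar exporter SAG29 (AT5G13170) (-1.21 ± 0.45, FDR = 0.027), whose groups overlapped and whose FDR was 0.0501 to 0.129 without era1 library 1, era1 library 3, WT library 1 or WT library 2.

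Transcripts of anthocyanin and flavonoid synthesis genes were mostly higher in era1 at 0 mM. Of 27 tested members 18 rose and 6 fell, with a median of 0.71, or 1.19 without WT library 1. After MYB90 a flavonoid hydroxylase and enzymes that decorate the pigment changed most. UF3GT (AT5G54060), which adds xylose to anthocyanins, had 91.8, 89.9 and 90.0 CPM in era1 and 11.3, 9.01 and 6.10 CPM in WT (3.36 ± 0.18, FDR = 2.0e-13). TT7 (AT5G07990), the flavonoid 3'-hydroxylase, averaged 60.3 ± 7.77 CPM in era1 and 6.46 ± 1.20 CPM in WT (3.22 ± 0.19, FDR = 4.7e-13), and AT5MAT (AT3G29590), an anthocyanin malonyltransferase, 54.8 ± 2.23 and 5.88 ± 1.79 CPM (3.21 ± 0.15, FDR = 1.2e-14). None of these 3 had overlapping genotypes. The phenylalanine ammonia-lyase PAL2 (AT3G53260), at the entry of the pathway, was lower (-0.49 ± 0.08, FDR = 2.9e-05), as was the flavonol synthase FLS1 (AT5G08640) (-0.46 ± 0.14, FDR = 0.00706), though its FDR was 0.0584 without era1 library 3 and 0.0966 without WT library 1.

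In starch and sugar metabolism 12 of 26 members rose and 4 fell, with a median of 0.28. After GPT2 the starch-debranching isoamylase ISA3 (AT4G09020) changed most, with 24.4, 40.6 and 26.1 CPM in era1 and 4.91, 4.31 and 5.18 CPM in WT (2.66 ± 0.22, FDR = 3.9e-10). The sucrose exporter SWEET13 (AT5G50800) had 73.8, 90.8 and 87.5 CPM in era1 and 18.3, 18.4 and 29.6 CPM in WT (1.92 ± 0.15, FDR = 1.2e-10). DIN10 (AT5G20250), a raffinose synthase-like protein induced by darkness and sugar starvation, and BMY3 (AT5G18670), the beta-amylase BAM9, were lower (-1.65 ± 0.38, FDR = 8.0e-04, and -1.10 ± 0.10, FDR = 2.1e-09). SEN1, DIN11 and DIN10, 3 dark-inducible genes, stood lower in era1 while DIN2, also named for dark induction, stood higher.

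**Figure D3:**
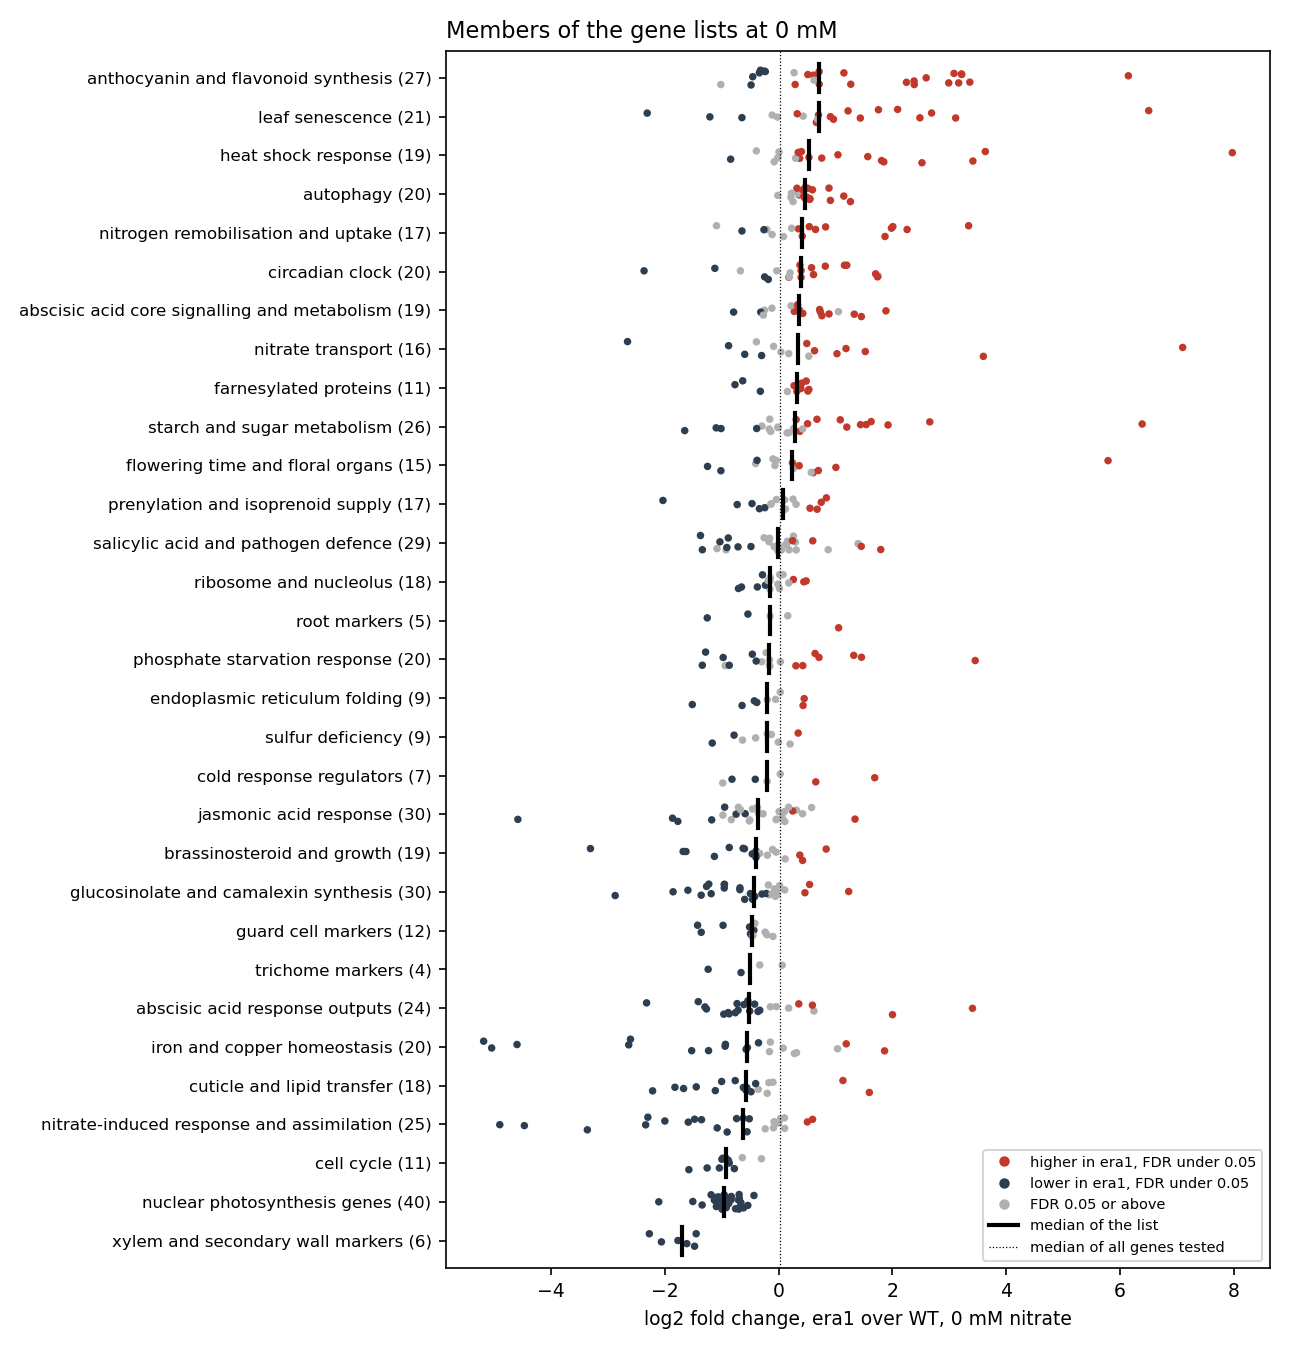
Each point is a tested member of a gene list at its log2 fold change of era1 over WT at 0 mM, red or dark blue where it passed and grey where it did not, with the list median as a black bar and the median of all genes (0.02) as a dotted line. The lists run by median, with anthocyanin synthesis (0.71) at the top and xylem and secondary wall markers (-1.69) at the bottom, and the point furthest right, HSP23.6-MITO, is a fitted value of a gene with no WT count.

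Photosynthesis genes were lower in era1 without exception: all 40 tested nuclear members fell, with a median of -0.95. CA1 (AT3G01500), the chloroplast beta carbonic anhydrase, had 549.7, 653 and 407 CPM in era1 and 2595, 2448 and 1899.8 CPM in WT (-2.11 ± 0.12, FDR = 1.8e-13). LHCB6 (AT1G15820), an antenna protein of photosystem II, had 660.4, 744 and 582 CPM in era1 and 1751, 1672 and 1631 CPM in WT (-1.35 ± 0.07, FDR = 4.2e-14). ATPD (AT4G09650), the delta subunit of the chloroplast ATP synthase, averaged 214 ± 56.1 CPM in era1 and 611 ± 76.3 CPM in WT (-1.51 ± 0.17, FDR = 9.9e-08), and PSBO2 (AT3G50820), a subunit of the oxygen-evolving complex, 208 ± 57.4 and 474 ± 43.6 CPM (-1.19 ± 0.28, FDR = 9.6e-04). In rosettes, a bulk sample, fewer cells of a type and less RNA per cell cannot be told apart, here or for the cell type markers that follow.

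Genes of dividing and expanding cells were lower as well. Of 11 tested cell cycle genes 9 fell and 0 rose, with a median of -0.92. TSO2 (AT3G27060), the small subunit of ribonucleotide reductase, had 43.8, 48.3 and 39.6 CPM in era1 and 108, 91.1 and 116 CPM in WT (-1.26 ± 0.13, FDR = 1.9e-08). The mitotic genes CYCA1;1 (AT1G44110), CDKB2;1 (AT1G76540) and CDC20.1 (AT4G33270), a cyclin, a kinase and an activator of the anaphase-promoting complex, were also lower, with log2 fold changes of -1.04 ± 0.22, -1.0 ± 0.24 and -1.58 ± 0.39. In the brassinosteroid and growth list 11 of 19 were lower and 3 higher, with a median of -0.40. HBI1 (AT2G18300), a bHLH factor that promotes cell elongation, had 6.48, 7.55 and 6.79 CPM in era1 and 64.0, 69.0 and 74.5 CPM in WT (-3.31 ± 0.13, FDR = 4.7e-16). PRE1 (AT5G39860), another growth-promoting bHLH protein, EXPA8 (AT2G40610), a cell wall expansin, and TCH4 (AT5G57560), a xyloglucan endotransglucosylase, were at -1.68 ± 0.15, -1.63 ± 0.14 and -1.13 ± 0.22, all called lower. The brassinosteroid synthesis genes CYP90D1 (AT3G13730) (0.83 ± 0.25) and DET2 (AT2G38050) (0.42 ± 0.14) were called higher, with an FDR above 0.05 for CYP90D1 without WT library 3 (0.0712) and for DET2 without era1 library 3 (0.0524).

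All tested xylem markers were lower in era1, while guard cell, trichome and root markers were called only in part. Of all genes tested 24.6% were lower and 49.1% were called in either direction. The xylem and secondary wall markers summed to 27.8 to 41.1 CPM in the era1 libraries, against 102 to 104 CPM in the WT libraries, and all 6 tested members of 7 fell, with a median of -1.69. XCP1 (AT4G35350) and XCP2 (AT1G20850), cysteine proteases of dying tracheary elements, averaged 4.79 ± 1.15 and 10.3 ± 3.14 CPM in era1, against 23.2 ± 2.36 and 31.5 ± 2.77 CPM in WT (-2.27 ± 0.19, FDR = 5.5e-10, and -1.62 ± 0.18, FDR = 5.7e-08). IRX12 (AT2G38080), the lignin laccase LAC4, and CESA4 (AT5G44030), a cellulose synthase of secondary walls, fell too (-2.06 ± 0.24, FDR = 1.1e-07, and -1.77 ± 0.21, FDR = 1.5e-07). Guard cell and stomatal lineage markers summed to 93.7 to 121 CPM in era1 and 127 to 132 CPM in WT, with 6 of 12 lower and 0 higher. SPCH (AT5G53210), the factor that starts the stomatal lineage, had 2.63, 2.73 and 2.37 CPM in era1 and 7.37, 7.05 and 6.47 CPM in WT (-1.43 ± 0.26, FDR = 6.3e-05). Of 4 trichome markers 2 were lower, MYB0 (AT3G27920), the trichome initiation factor GL1 (-1.24 ± 0.28, FDR = 6.9e-04), and TRY (AT5G53200), its inhibitor (-0.66 ± 0.11, FDR = 1.7e-05), and the list summed to 46.5 to 60.7 CPM in era1 and 63.6 to 77.3 CPM in WT. The root markers summed to 65.0 to 84.8 CPM in era1 and 83.7 to 96.9 CPM in WT. These ranges overlap on plain library totals, but they would not overlap with the TMM factors applied. Of 5 tested root markers 2 were lower and 1 higher. Their median was -0.15, or -0.25 without era1 library 1 and -0.06 without era1 library 3. The part of these cell types in the other differences was not tested.

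Abscisic acid outputs were mostly lower in era1 at 0 mM. Of 24 tested response outputs 16 fell and 4 rose, with a median of -0.53, or -0.71 without era1 library 2. P5CS1 (AT2G39800), the enzyme that commits glutamate to proline, had 96.2, 135 and 83.0 CPM in era1 and 286, 283 and 268 CPM in WT (-1.41 ± 0.12, FDR = 8.5e-10). LTI65 (AT5G52300), the desiccation gene RD29B, was scattered, with 0.175, 4.66 and 0.474 CPM in era1 and 14.2, 9.99 and 3.33 CPM in WT, and the groups overlapped (-2.32 ± 0.68, FDR = 0.00643). Its FDR was 0.0563 without WT library 1, and its log2 fold change was -4.68 without era1 library 2. The NAC factors NAC3 (AT3G15500), also called NAC055, and NAC019 (AT1G52890) went against the list. NAC3 had 3.68, 4.98 and 21.8 CPM in era1 and 1.13, 0.784 and 0.924 CPM in WT (3.41 ± 0.60, FDR = 4.1e-05; 2.17 without era1 library 3), and NAC019 averaged 11.9 ± 2.12 and 2.97 ± 0.205 CPM (2.0 ± 0.24, FDR = 1.6e-07).

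Among core signalling and metabolism genes of abscisic acid 12 of 19 rose and 2 fell, with a median of 0.36. The members with the largest rise sat at different steps of the pathway. ABF1 (AT1G49720), a bZIP factor that binds abscisic acid response elements, had 5.26, 5.94 and 4.42 CPM in era1 and 1.51, 1.37 and 1.29 CPM in WT (1.88 ± 0.28, FDR = 3.9e-06). The receptor PYL5 (AT5G05440) (0.88 ± 0.20), the phosphatase HAI2 (AT1G07430), which opposes the signal (1.33 ± 0.23), and the hydroxylase CYP707A1 (AT4G19230), which degrades the hormone (1.45 ± 0.27), were also higher, at FDRs of 9.1e-04, 3.2e-05 and 8.7e-05. A second hydroxylase gene, CYP707A3 (AT5G45340), was lower (-0.79 ± 0.19, FDR = 0.00141), as was the phosphatase PP2CA (AT3G11410) (-0.32 ± 0.11, FDR = 0.0217), both with overlapping genotypes. The call of PP2CA was lost without era1 library 1 (FDR = 0.0747), era1 library 3 (0.114) or WT library 3 (0.163).

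Most members of the cuticle and lipid transfer list were lower in era1. 12 of 18 members were lower and 2 higher, with a median of -0.57. CER1 (AT1G02205), required for wax alkanes, had 25.9, 42.4 and 15.9 CPM in era1 and 151, 127 and 114 CPM in WT (-2.22 ± 0.19, FDR = 4.0e-10). CER4 (AT4G33790), a fatty acyl reductase that makes wax alcohols, had 6.48, 7.39 and 7.10 CPM in era1 and 21.7, 22.3 and 23.1 CPM in WT (-1.67 ± 0.13, FDR = 9.2e-11), and WSD1 (AT5G37300), a wax ester synthase, was lower too (-1.83 ± 0.20, FDR = 3.7e-08). The 2 members that rose, LTP4 and LTP3, are lipid transfer proteins, a class from which other members of the list were lower. LTP4 (AT5G59310) had 44.3, 53.8 and 31.7 CPM in era1 and 19.8, 17.2 and 6.10 CPM in WT (1.59 ± 0.32, FDR = 2.2e-04). LTP3 (AT5G59320) had 109.5, 111 and 81.3 CPM in era1 and 55.5, 53.7 and 29.0 CPM in WT (1.13 ± 0.29, FDR = 0.00222). These genes are close relatives, so reads may have been assigned to either.

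Heat shock genes were higher in era1. 13 of 19 tested members rose and 1 fell, with a median of 0.53. HSFA2 (AT2G26150), a heat-inducible transcription factor, had 369.7, 219.6 and 388 CPM in era1 and 19.8, 26.4 and 32.3 CPM in WT (3.63 ± 0.18, FDR = 2.1e-14). The chaperone HSP90.1 (AT5G52640) had 471, 259 and 450.3 CPM in era1 and 57.4, 70.7 and 77.4 CPM in WT (2.52 ± 0.18, FDR = 1.4e-11). Era1 library 2 was the lowest of the 3 for both, and for Hsp70-2, and lay above every WT library. HSP23.6-MITO (AT4G25200), a small heat shock protein of mitochondria, had 39, 17 and 50 counts in era1 and none in WT, at least 30.6-fold higher when the WT group is set to 3 counts. At its bound this gene still lies above the list median, so the median could not move. HSP17.4 (AT3G46230), a cytosolic small heat shock protein, had 41 counts over the era1 libraries and 3 over the WT libraries, a ratio of 11.8 (3.77 to 59.7). HSFB2A (AT5G62020), a class B factor of the family, fell (-0.85 ± 0.15, FDR = 6.0e-05). Chaperones of the endoplasmic reticulum did not follow: 4 of 9 fell and 2 rose, with BIP3 (AT1G09080) (-1.52 ± 0.35, FDR = 8.8e-04), BIP2 (AT5G42020) (-0.64 ± 0.09, FDR = 3.0e-06) and SHD (AT4G24190) (-0.43 ± 0.09, FDR = 5.2e-04), 3 chaperones, lower, and the protein disulfide isomerase PDIL1-1 (AT1G21750) (0.45 ± 0.10, FDR = 9.9e-04) and the unfolded protein response factor BZIP60 (AT1G42990) (0.43 ± 0.10, FDR = 0.00128) higher.

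Defence genes showed no common direction at 0 mM. Of 29 tested genes of salicylic acid and pathogen defence 7 fell and 4 rose, with a median of -0.01 (-0.12 to 0.06 with a library left out), and 18 did not pass. PNP-A (AT2G18660), a secreted natriuretic-peptide-like protein, was higher, with 12.6, 7.71 and 8.53 CPM in era1 and 3.40, 3.13 and 3.88 CPM in WT (1.45 ± 0.30, FDR = 2.5e-04). AIG1 (AT1G33960), a GTP-binding protein induced by bacterial effectors (1.79 ± 0.62, FDR = 0.0198), was called higher, and NIMIN1 (AT1G02450), which binds the salicylic acid receptor NPR1 (-1.34 ± 0.49, FDR = 0.0246), and WRKY62 (AT5G01900) (-1.38 ± 0.57, FDR = 0.0495) lower. Leaving out era1 library 1 raised the FDR to 0.0807 for AIG1 and 0.0932 for WRKY62, leaving out WT library 1 to 0.0696 for AIG1, leaving out WT library 2 to 0.0653, 0.168 and 0.473 for AIG1, NIMIN1 and WRKY62, and leaving out era1 library 2 to 0.118 for NIMIN1 and 0.153 for WRKY62. Of 30 jasmonic acid genes 7 fell, 2 rose and 21 did not pass, with a median of -0.37. VSP1 (AT5G24780), a vegetative storage protein of that pathway, had 4.73, 5.46 and 1.11 CPM in era1 and 16.1, 14.3 and 10.7 CPM in WT (-1.87 ± 0.33, FDR = 5.5e-05). The defensins PDF1.3 (AT2G26010) and PDF1.2b (AT2G26020) are near-identical copies and were highest in WT library 1. PDF1.3 had 2 counts over the era1 libraries and 50 over the WT libraries, a ratio of WT over era1 of 28.9 (7.59 to 245). PDF1.2b had 2.63, 0.964 and 5.68 CPM in era1 and 23.2, 8.03 and 0.924 CPM in WT, with overlapping groups. Their log2 fold changes were -4.59 ± 0.95 and -1.77 ± 0.63, and without WT library 1 they were -3.15 (FDR = 0.00828) and -0.51 (0.57). The FDR of PDF1.2b was also above 0.05 without era1 library 1 (0.0588) or era1 library 2 (0.0968). ORA59 (AT1G06160), the ethylene and jasmonate factor upstream of such defensins, was higher (1.34 ± 0.32, FDR = 0.00129; 2.32 without WT library 1), and so was the repressor JAZ12 (AT5G20900) (0.24 ± 0.07, FDR = 0.0065).

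Glucosinolate and camalexin genes were mostly lower, 18 of 30 against 3 higher, with a median of -0.44, or -0.28 without WT library 1. Glucosinolates are sulfur- and nitrogen-rich defence compounds of the cabbage family. CYP79B3 (AT2G22330), which starts indole glucosinolate synthesis from tryptophan, had 21.7, 21.8 and 15.5 CPM in era1 and 68.6, 72.3 and 72.8 CPM in WT (-1.86 ± 0.13, FDR = 1.2e-11). TGG2 (AT5G25980), the myrosinase that activates glucosinolates, had 172, 246 and 139 CPM in era1 and 622, 545 and 515 CPM in WT (-1.60 ± 0.13, FDR = 1.7e-10). MYB76 (AT5G07700), a regulator of aliphatic glucosinolates, fell as well (-1.36 ± 0.32, FDR = 0.00107). CYP71A13 (AT2G30770) of camalexin synthesis was uneven in WT, with 0.526, 1.77 and 0.947 CPM in era1 and 18.3, 5.68 and 0.555 CPM in WT, overlapping groups, and a log2 fold change of -2.88 ± 0.66 that shrank to -1.48 (FDR = 0.0552) without WT library 1. The aliphatic enzymes IMS2 (AT5G23020), the chain elongation enzyme MAM3, and CYP79F2 (AT1G16400) rose (1.23 ± 0.13, FDR = 3.4e-08, and 0.54 ± 0.14, FDR = 0.00216).

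Iron regulators were among the strongest decreases. 12 of 20 genes of iron and copper homeostasis fell and 2 rose, with a median of -0.56. The bHLH factors of subgroup Ib switch on iron uptake when iron is short. BHLH100 (AT2G41240) had 0.35, 0.642 and 0 CPM in era1 and 13.8, 7.05 and 17.4 CPM in WT (-5.19 ± 0.59; -6.08 without era1 library 2). bHLH38 (AT3G56970) had 0.876, 0.803 and 0.474 CPM in era1 and 20.2, 14.7 and 18.5 CPM in WT (-4.60 ± 0.56), and bHLH39 (AT3G56980), its neighbour, averaged 0.266 ± 0.245 and 9.76 ± 2.71 CPM (-5.05 ± 0.69; -5.69 without era1 library 2). BHLH101 (AT5G04150) averaged 1.54 ± 0.251 and 9.64 ± 2.0 CPM (-2.64 ± 0.28). None of the 4 had overlapping genotypes, which the rule for the strongest decreases required of all but BHLH101. Their FDRs were 6.9e-08, 2.1e-07, 1.6e-06 and 2.7e-08. The members that rose act in moving metals through the leaf: the nicotianamine synthase NAS3 (AT1G09240) had 27.9, 18.8 and 29.4 CPM in era1 and 6.61, 5.88 and 8.32 CPM in WT (1.86 ± 0.20, FDR = 2.3e-08), and the metal-nicotianamine transporter YSL1 (AT4G24120) 53.0 ± 5.06 and 23.4 ± 6.09 CPM (1.19 ± 0.13, FDR = 7.0e-08).

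Phosphate starvation genes were split, 7 higher and 6 lower of 20, with a median of -0.16. MGDC (AT2G11810), the galactolipid synthase MGD3, rose to 22.3, 27.9 and 29.4 CPM in era1, against 1.89, 1.96 and 3.33 CPM in WT (3.46 ± 0.27, FDR = 1.6e-10), and the phospholipase D PLDP2 (AT3G05630) rose by 1.46 ± 0.24 (FDR = 2.1e-05). Both enzymes take part in replacing phospholipids by galactolipids. The phosphate transporter PHT1;4 (AT2G38940) was low in both genotypes and called higher (1.32 ± 0.42, FDR = 0.0122), but not without era1 library 3 (FDR = 0.0537) or WT library 1 (0.0679). The phosphodiesterase SRG3 (AT3G02040) (-1.34 ± 0.24, FDR = 5.4e-05) and the noncoding RNA AT4 (AT5G03545) (-1.29 ± 0.31, FDR = 0.00138) were lower. Of 9 sulfur deficiency genes 2 fell and 1 rose, with a median of -0.20, or -0.03 without era1 library 1, -0.32 without era1 library 2, -0.08 without era1 library 3 and -0.07 without WT library 1. The sulfate-reducing enzyme APR2 (AT1G62180) fell to 291 ± 9.14 CPM in era1, against 502 ± 23.8 CPM in WT (-0.79 ± 0.07, FDR = 9.3e-10). The low-sulfur markers LSU1 (AT3G49580) (-1.17 ± 0.40, FDR = 0.0167) and LSU2 (AT5G24660) (0.34 ± 0.11, FDR = 0.0142) had opposite signs, and the call was lost without WT library 1 or 2 for LSU1 (FDR = 0.0797 and 0.0565), without WT library 3 for LSU2 (0.151) and without era1 library 1 for both (0.0629 and 0.0850).

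Daytime and evening clock genes differed between the genotypes. 11 of 20 members rose and 4 fell, with a median of 0.38. LHY (AT1G01060), a morning MYB factor given here because it reports time of day, averaged 723 ± 22.6 CPM in era1 and 740.0 ± 13.1 CPM in WT (-0.03 ± 0.07, FDR = 0.724), and its partner CCA1 (AT2G46830) 278 ± 16.5 and 245 ± 11.4 CPM (0.18 ± 0.07, FDR = 0.0396), both chosen after their values were seen. PRR9 (AT2G46790), a pseudo-response regulator of the early day, had 11.9, 10.1 and 10.7 CPM in era1 and 5.29, 4.70 and 4.25 CPM in WT (1.20 ± 0.20, FDR = 1.7e-05). PCL1 (AT3G46640), the evening factor LUX, had 1.40, 1.61 and 1.74 CPM in era1 and 10.4, 7.64 and 6.84 CPM in WT (-2.37 ± 0.32, FDR = 1.5e-06), whereas its evening partner ELF4 (AT2G40080) rose (1.70 ± 0.40, FDR = 0.00107). RVE1 (AT5G17300), a MYB factor that links the clock to auxin, fell to 44.3 ± 1.43 CPM in era1, against 96.4 ± 6.44 CPM in WT (-1.12 ± 0.09, FDR = 4.4e-10). PRR3 (AT5G60100) was called higher (1.74 ± 0.52, FDR = 0.0077), but not without era1 library 3 (1.15, FDR = 0.142).

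Among flowering genes 6 of 15 rose and 3 fell, with a median of 0.24, or 0.07 without era1 library 2 and 0.36 without era1 library 3. TSF (AT4G20370), a close relative of the flowering signal FT, had 87 counts over the era1 libraries and 1 over the WT libraries, a ratio of 75.3 (13.2 to 3008), and AGL8 (AT5G60910), the meristem gene FRUITFULL, was higher (1.0 ± 0.25, FDR = 0.00177). The flowering repressors MAF5 (AT5G65080) and MAF4 (AT5G65070), adjacent members of 1 family, were lower (-1.25 ± 0.16, FDR = 8.0e-07, and -1.02 ± 0.31, FDR = 0.00858). Ribosome and nucleolus genes had 5 of 18 lower and 3 higher, with a median of -0.15, or -0.08 without era1 library 2 and -0.10 without WT library 2. The ribosomal protein RPS6 (AT4G31700) and the scaffold RACK1B_AT (AT1G48630) fell (-0.71 ± 0.07 and -0.65 ± 0.14), while the nucleolar proteins NUC-L1 (AT1G48920) and FIB1 (AT5G52470) rose (0.48 ± 0.09 and 0.44 ± 0.07). Of 7 cold response regulators 2 were higher and 2 lower, with a median of -0.20 that turned to 0.03 without era1 library 1 and 0.13 without WT library 3, and was -0.47, -0.36 and -0.35 without era1 library 3, WT library 1 and WT library 2.

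A few genes were silent in all libraries of a genotype at 0 mM and had at least 10 counts in each library of the other. AT1G03020, a thioredoxin superfamily protein, had no count in era1 and 29, 18 and 24 in WT, at least 27.3-fold lower. RLP7 (AT1G47890), a receptor-like protein, had 12, 13 and 11 counts in era1 and none in WT, at least 10.4-fold higher, and GolS4 (AT1G60470), a galactinol synthase, 10, 13 and 12 counts and none, at least 10.1-fold higher. AT4G29770, named in the reference table as a target of trans-acting small RNA, had 31, 42 and 40 counts in era1 and none in WT, at least 32.6-fold higher. AT1G10225, a predicted transmembrane protein, had 25, 30 and 33 counts in era1 and none in WT, at least 25.4-fold higher. AT1G10225 differed at every dose: over the 9 era1 libraries of the series it had 25 to 55 counts, and no WT library had more than 1.

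The genotype difference at 0 mM was then set beside that at the other doses. The era1 and WT libraries differ between doses, but the filter and the estimate of spread were shared: in a fit of the 6 libraries at 0 mM alone 8012 genes were called at 0 mM, against 9014. At 10 mM 5458 genes were called (29.7%; 2831 higher, 15.4%, and 2627 lower, 14.3%), and at 2 mM 4040 (22.0%; 2006 higher, 10.9%, and 2034 lower, 11.1%). Of the genes called at 0 mM 3196 were also called at 10 mM. That is 35.5% of the 0 mM genes, against 29.7% of all genes tested. It is 58.6% of the 10 mM genes, while 49.1% of all genes tested were called at 0 mM. Of the 3196 genes 2287 had the same direction at both doses. The other 909 were turned round, 531 being lower at 0 mM and higher at 10 mM. With 2 mM 2890 genes were shared, and 2634 (91.1%) had the same direction. The shared genes were 32.1% of the 0 mM genes, against 22.0% of all genes tested. They were 71.5% of the 2 mM genes, while 49.1% of all genes tested were called at 0 mM. The genotype difference itself differed between 0 and 10 mM for 6405 genes (34.9%) and between 0 and 2 mM for 4234 (23.1%).

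Photosynthesis, cell cycle and xylem genes had a median further from 0 without nitrate than at the higher doses. Between 0 and 2 mM the difference passed for 37 of 40 photosynthesis genes, 1 of 11 cell cycle genes and 4 of 6 xylem markers. For photosynthesis the median was -0.95 without nitrate, -0.36 with 2 mM and -0.15 with 10 mM, and 39 of 40 members differed between 0 and 10 mM. For the cell cycle the medians were -0.92, -0.35 and 0.10 (9 of 11 members differed between 0 and 10 mM), and for the xylem markers -1.69, -0.80 and -0.36 (6 of 6). Autophagy had 0.46, 0.02 and 0.03 (12 of 20), and nitrate response and assimilation genes -0.62, -0.03 and 0.05 (16 of 25). NIR1 shows the pattern in a single gene: at 10 mM it averaged 470.4 ± 72.9 CPM in era1 and 362 ± 15.1 CPM in WT, a log2 fold change of 0.38 ± 0.11 (FDR = 0.0133), and the test of the difference between doses gave -2.72 ± 0.17 (FDR = 2.0e-11).

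Other groups had a different genotype effect at 10 mM, some with a median of the opposite sign. Abscisic acid outputs had a median of -0.53 at 0 mM, 0.37 at 2 mM and 0.56 at 10 mM, where 14 of 24 were higher and 2 lower, and 19 differed between 0 and 10 mM. LTI65 averaged 39.6 ± 22.8 CPM in era1 and 3.95 ± 1.54 CPM in WT at 10 mM (3.31 ± 0.49, FDR = 1.5e-05). Cuticle and lipid transfer genes had -0.57, -0.08 and 0.34, with 11 higher and 0 lower at 10 mM (16 of 18 differed). CER4 averaged 27.2 ± 1.72 CPM in era1 and 11.6 ± 0.636 CPM in WT at 10 mM (1.24 ± 0.12, FDR = 2.8e-08). The 9 sulfur genes, divided at 0 mM, were all called higher at 10 mM, with a median of 1.64, and all 9 differed between these doses. Salicylic acid genes, also divided at 0 mM, had 22 of 29 lower and 0 higher at 10 mM, with a median of -1.15, and 16 differed between the doses. At 2 mM the same list had 14 higher and 1 lower, with a median of 0.54, and the sulfur list had 2 higher and 1 lower, with a median of 0.01.

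Other groups had medians of the same sign at each dose. Anthocyanin genes had medians of 0.71, 0.53 and 0.76 at 0, 2 and 10 mM, senescence genes 0.70, 0.89 and 0.47, and heat shock genes 0.53, 1.02 and 0.58. Between 0 and 10 mM 13 of 27, 9 of 21 and 5 of 19 members of these lists differed. HSFA2 was higher in era1 at 2 mM (5.47 ± 0.34) and at 10 mM (4.36 ± 0.23), and its test of the difference between 0 and 10 mM did not pass (-0.73 ± 0.32, FDR = 0.0802). HSP90.1 was likewise at 3.0 ± 0.24 and 2.31 ± 0.18. The iron regulator bHLH38 had 0.90 ± 0.41 (FDR = 0.124) at 2 mM and -4.86 ± 0.35 (FDR = 2.0e-10) at 10 mM. The 2 mM libraries of both genotypes stood apart from all others on the first principal component, which held 35.5% of the variance, so values at 2 mM stand beside a separation that the genotypes share.

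**Figure D4:**
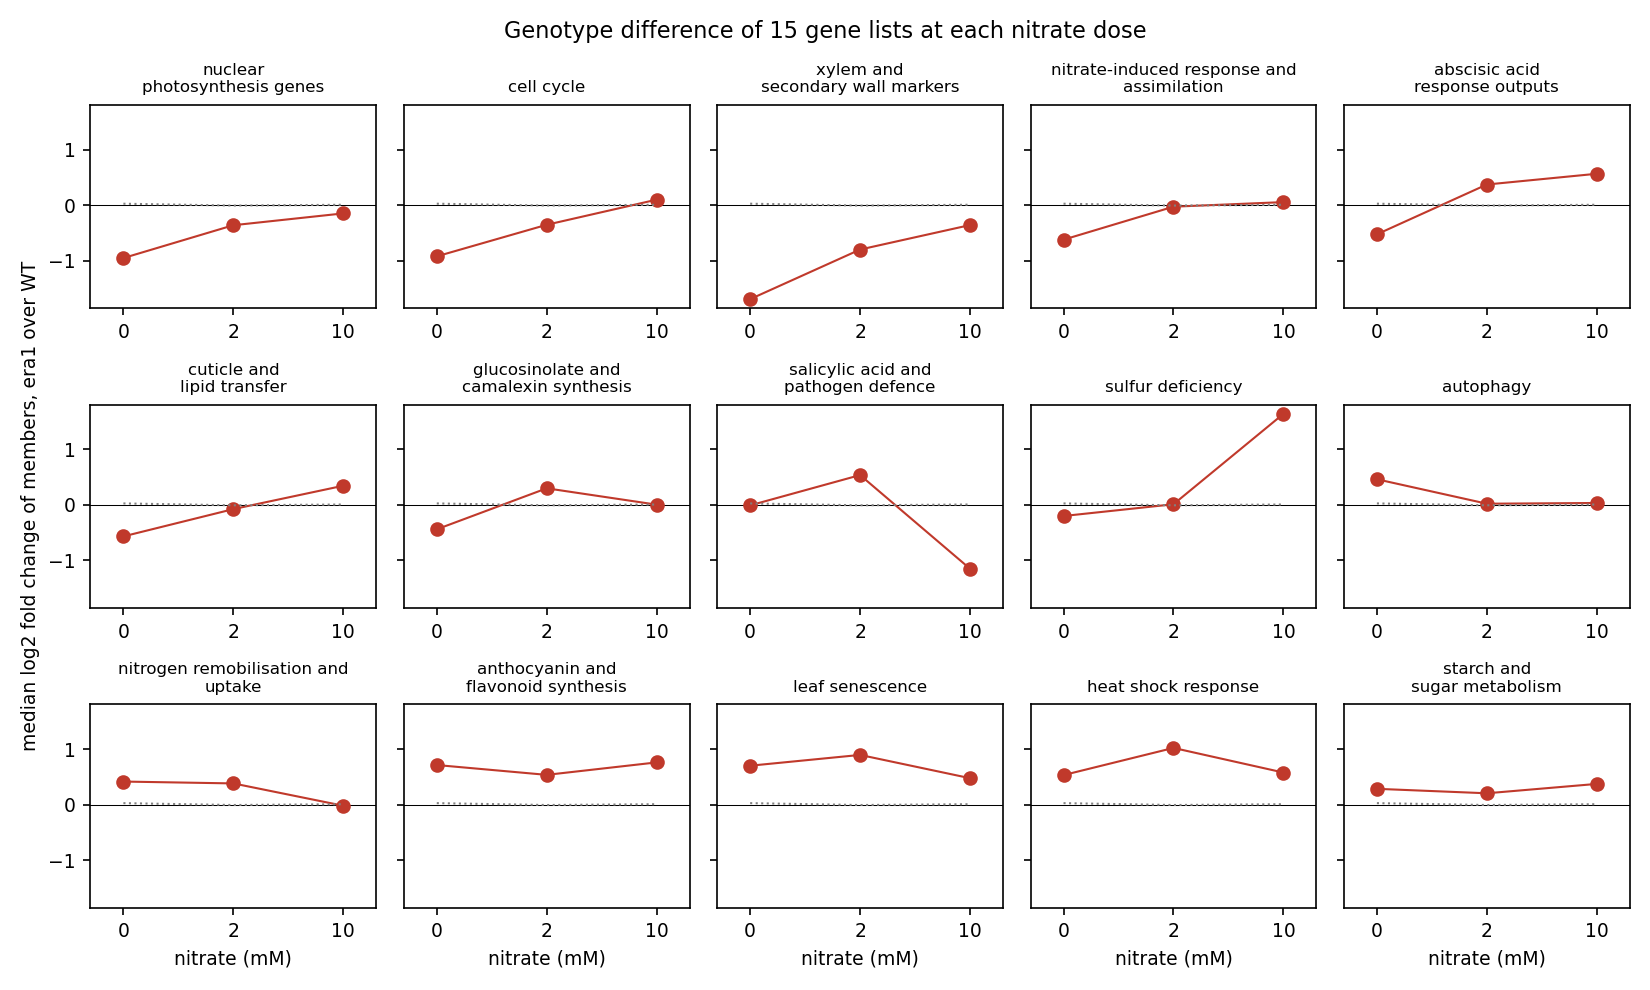
Median log2 fold change of era1 over WT of the tested members of 15 gene lists at 0, 2 and 10 mM nitrate (doses evenly spaced on the axis), with the median of all genes tested dotted. Abscisic acid outputs run from -0.53 at 0 mM to 0.56 at 10 mM, and photosynthesis genes from -0.95 to -0.15.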

How the data were processed

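The series holds 18 libraries of rosette RNA, 3 in each of 6 groups of genotype and nitrate dose. They were made with a QuantSeq 3' protocol from polyA-selected RNA, stranded and with single reads, per the labels' protocols. The authors deposited raw counts per gene, one table per library, whose layout is that of htseq-count. TopHat2 and TAIR10 are named in the submitters' processing notes, without versions. The counting itself (annotation, strand setting) was not given in the sources used here. Without that setting, counts of overlapping and antisense genes are uncertain, as are those of near-identical family members.

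Groups and replicate numbers came from the sample titles. The 5 summary counters stayed out of library sizes and tests. Reads outside genes amounted to 5.06 ± 0.293% of all reads in era1 and 5.43 ± 0.259% in WT at 0 mM, reads without a unique alignment to 4.74 ± 0.519% and 4.97 ± 0.245%, and ambiguous reads to 0.133% and 0.122% (SD, n = 3 each; exact two-sided permutation p = 0.3, 0.6 and 0.2). Gene totals over all libraries ran from 4748044 to 6306900. Libraries of a group differed beyond counting noise (chi-square per degree of freedom 2.53 to 4.44 at 0 mM, over genes with at least 20 counts in a pair), so no pair was merged as a repeat of 1 library. This does not show separate plants.

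Names came from the RefSeq gene table of TAIR10.1, in which 32548 of 32744 gene IDs matched and 10804 had a symbol. No coordinates or sequences were taken from it. Genes were kept by filterByExpr (minimum count 10, minimum total 15), which left 18358, and scaled by TMM. In R 4.3.3, edgeR 4.0.16 fitted its quasi-likelihood model with 1 coefficient per group to all 18 libraries, so all groups share an estimate of the spread. Contrasts were era1 minus WT at each dose and the difference of that contrast between doses, with Benjamini-Hochberg adjustment over all genes tested. The fit was tested on simulated counts with known changes in a small share of genes, in era1 at 0 mM only. That simulation does not show how scaling and calls behave where 49.1% of genes pass, as at 0 mM here. SE is the size of the log2 fold change divided by the square root of F. Folds against a group without counts set that group to 3 counts in all, and ratio intervals are exact conditional ones at 95%. Floors and intervals cover counting error only.

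The text names the called genes with the strongest increase and decrease, up to 12 each, among those with a symbol, at least 5 CPM on average and no overlap of the genotypes. From each list it takes up to 4 members with the largest called change and up to 2 called the other way. Genes without a count in 1 genotype and with at least 10 counts in each library of the other are named too, as are ERA1, its partner subunits, the locus in the genotype label and the farnesylated proteins. Any other gene named is said to have been chosen after its values were seen, or is described beside a member it belongs with. The 33 lists held 651 entries, of which 633 matched the table by ID and name. Members and lists were chosen with earlier results of these data known. Lists are described by counts and medians, with no test of the list. DESeq2 1.42.0, RLE scaling, other filters, fewer libraries, a replicate block and the omission of each replicate were run as alternatives. Proteins with a farnesylation-type tail, promoter motifs and ecotypes were not analysed here.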

Additional observations from a re-analysis of the deposited data

Results flagged for a closer look

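The genotype difference at 0 mM was set against that at 10 mM by an interaction contrast in edgeR's quasi-likelihood test, and 6405 genes passed at an FDR under 0.05. Of the 174 genes named here 106 were among them, against 34.9% of all genes tested. In 44 of the 106 the difference had the opposite sign at 10 mM. Most of these genes were named for a large change at 0 mM. That choice favours values with the sign of the change at 0 mM, so neither their number nor their signs are read as a pattern. Each value that follows is the log2 fold change of era1 over WT at 0 mM minus that at 10 mM, so a negative value means that era1 stood lower relative to WT at 0 mM than at 10 mM.

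Among nitrogen genes, nitrate transport had 9.11 for NRT2.5, -1.05 for CLC-B and -2.34 for CLC-A. The nitrate response and assimilation list had 0.50 for CIPK23, -0.80 for NIA2, -2.72 for NIR1 and 0.78 for TGA4. Its LBD genes had -2.63 for LBD38, -5.06 for LBD39 and -2.28 for LBD37. Remobilisation and uptake had -0.54 for AAP1, 2.78 for ERD5, 2.89 for GLN1;4, 1.39 for GSR 1 and 2.47 for DUR3. Autophagy genes had 0.88 for ATG8D, 0.82 for ATG8G, 1.13 for ATG8B and 0.69 for APG8A, and senescence genes had 2.45 for SAG13, 2.45 for NAC042, 1.37 for NYE2 and -2.70 for SAG29. NRT2.5 had the largest positive value of the 106.

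Photosynthesis genes had -1.13 for LHCB6, -1.56 for CA1, -1.35 for PSBO2 and -1.49 for ATPD, and cell cycle genes had -1.34 for CYCA1;1, -1.07 for CDKB2;1, -1.12 for TSO2 and -1.50 for CDC20.1. For growth genes the values were -2.69 for HBI1, 1.20 for CYP90D1 and -1.05 for PRE1. Xylem markers had -1.37 for XCP2, -2.61 for IRX12, -1.97 for XCP1 and -1.18 for CESA4, trichome markers had -1.47 for MYB0 and -0.93 for TRY, and the stomatal lineage factor had -1.32 for SPCH. All of these values but that of CYP90D1 were negative.

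Abscisic acid outputs had -1.76 for P5CS1, 2.93 for NAC3 and -5.63 for LTI65, and its core genes had 1.91 for ABF1 and -0.47 for PP2CA. In the cuticle list the values were -3.06 for CER1, -2.91 for CER4, -2.83 for WSD1, -2.05 for LTP4 and -3.59 for LTP3, so that LTP4 and LTP3, higher in era1 at 0 mM, had negative values too. Glucosinolate and camalexin genes had 1.08 for CYP79F2, -1.69 for CYP79B3, -3.01 for CYP71A13, -1.39 for MYB76, 0.64 for IMS2 and -1.53 for TGG2. Jasmonic acid genes had 1.77 for ORA59 and -3.50 for VSP1, and the salicylic acid list had 2.21 for PNP-A. Sulfur genes had -1.32 for APR2, -4.80 for LSU1 and -1.74 for LSU2, while phosphate genes had 5.52 for MGDC, 1.70 for PHT1;4, 0.96 for SRG3, 1.56 for PLDP2 and 2.39 for AT4.

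Farnesylated proteins had -0.86 for BR6OX2, 0.49 for ASG2, -0.58 for NAP1;3 and -0.75 for FP3, and the prenylation list had 0.97 for REP and -0.56 for FPS1. Heat shock genes had 3.05 for HSP17.4 and -0.60 for HSFB2A, and the endoplasmic reticulum list had 0.89 for BZIP60. Clock genes had 1.03 for PRR9, -2.26 for PCL1 and 0.53 for RVE1, anthocyanin and flavonoid genes had 1.81 for TT7 and -1.28 for FLS1, and the starch list had 2.16 for ISA3. Ribosome and nucleolus genes had -0.83 for RACK1B_AT, 0.36 for NUC-L1, -0.47 for RPS6 and 0.28 for FIB1, and the flowering list had 0.82 for MAF5.

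Of the genes outside the lists, those with positive values were at 2.95 for THA1, 2.78 for AOX1D, 8.32 for RLP7, 4.42 for DIN2, 6.01 for AT4G29770 and 3.46 for ELI3-2. Those with negative values were at -2.99 for LEA3, -8.26 for AT1G03020, -5.12 for AT1G49500, -2.66 for BBX14, -4.85 for AT3G21460, -9.05 for DIN11, -1.88 for AT3G62950, -5.08 for AT4G15660, -2.69 for BRS1, -1.68 for BT5, -2.79 for SP1L4 and -0.57 for AT5G66470. RLP7, AT4G29770 and AT1G03020 had no count in all 3 libraries of a genotype at 0 mM, so that their fitted values depend on the prior count and are no bounds.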

How the results depend on the processing

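Counts of genes called at 0 mM stayed within 1.5 times the reported 9014 (4491 higher, 4523 lower) under every alternative run. With RLE size factors 8941 genes were called (47.3% of them higher, against 49.8% with TMM), with no filter 9191, with a minimum count of 30 8340, in a fit of the 6 libraries at 0 mM alone 8012, without the 2 mM libraries 8710, and with DESeq2 7602 (45.9% higher). Leaving out each replicate in turn gave 7789 to 8623. Genes with a different genotype effect at 0 and 10 mM numbered 5778 to 6492. Replicate numbers did not pair the samples: deviations of same-numbered era1 and WT libraries correlated at 0.0497, -0.0686 and 0.0786, and the fit with a replicate block called 8944 genes, 4443 of them higher. Of 2222 combinations of a named gene and an alternative 2150 kept the direction and the call, and the changed calls fell on 24 of the 173 genes named by the rule. PEX19-1 lost its call in all alternatives that tested it but those with a minimum count of 30 or without era1 replicate 2. DESeq2 ended the calls of PEX19-1, PDF1.2b, DET2, PHT1;4, RGTB2, CYP90D1, WRKY62, SAG29 and NAP1;3. List medians moved by more than the spread between replicates (1 SD) in 25 of 217 combinations, over 15 of 31 lists, each with a replicate left out except 0.26 for starch and sugar genes with RLE, and no list median changed sign with RLE. The near-zero salicylic acid median changed sign in 3 of the left-out fits. The cause of these shifts was not tested. Genes with a few counts per library, such as NRT2.5 in WT, are limited by depth, and their fitted values move with single libraries.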

Other observations

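Genes encoded in the chloroplast moved with the nuclear photosynthesis genes. Of 84 tested chloroplast genes 72 were lower in era1 at 0 mM and none was higher, with a median log2 fold change of -0.67, while 4 of 17 tested mitochondrial genes passed, 3 of them higher, with a median of 0.15. Between 48.6% and 49.6% of the genes of each nuclear chromosome passed, with medians from 0.02 to 0.03. The libraries were made from polyA-selected RNA, which holds only a part of organelle transcripts.

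Genes without a symbol in the reference table lie outside the naming rule and were chosen after their values were seen. AT1G64795, uncharacterised, had 485, 322 and 500 counts in era1 and 0, 0 and 2 in WT at 0 mM, a ratio of 566 (156 to 4675), and its log2 fold change was 8.31 at 2 mM and 10.81 at 10 mM. AT1G75945 had 82.5, 64.6 and 80.5 CPM in era1 and 1.13, 0.392 and 1.66 CPM in WT (6.11 ± 0.20), and 6.50 and 6.27 at 2 and 10 mM. With AT1G10225 these loci separated the genotypes at each dose. Of genes that the reference table names as glutaredoxin family or thioredoxin superfamily, 3 are given for their large decrease, and the rest of these families was not counted. AT3G21460 had 0, 0.321 and 0.316 CPM in era1 and 32.7, 27.2 and 24.2 CPM in WT (-6.86 ± 0.36), AT4G15660 0.876, 0.482 and 0 and 22.5, 17.8 and 12.4 CPM (-5.25 ± 0.36), and AT3G62950 0.876, 0.482 and 0.632 and 15.9, 16.7 and 12.8 CPM (-4.47 ± 0.31). Genes of this kind can be close relatives, so reads may have been split or set aside among them. AT1G49500, named there as a TFIID subunit 1b-like protein, had 3.15, 6.91 and 1.89 CPM in era1 and 136, 142 and 149 CPM in WT (-5.15 ± 0.20), and a log2 fold change of -0.03 at 10 mM.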
